A study of Mus musculus with 25 samples.

Results

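Perigonadal white adipose tissue of male mice that lacked every form of the transcription factor ChREBP (total ChREBP KO) was compared with the same depot of mice that lacked only its β isoform (ChREBPβ KO). The arrays of this comparison were chosen by their labelled genotype, and there were 11 of the 25 arrays of the series: 5 of total ChREBP KO and 6 of ChREBPβ KO. The other 14 arrays held the wild-type littermates, 7 of the total ChREBP line (total ChREBP WT) and 7 of the ChREBPβ line (ChREBPβ WT), and they serve here to measure how far the lines differed without a knockout. All mice were C57BL6/J males, as labelled, on a regular diet, fasted for 24 hours and then refed for 18 hours with food and water that held 20% glucose. The ChREBPβ line was made with CRISPR/Cas9 by removing exon 1b of Mlxipl, the gene that encodes ChREBP, and is a whole-body deletion. The total ChREBP line carries a null Mlxipl allele in the whole body, and which part of the gene that allele lacks was not given in the sources used here, nor was the age of the mice. The labels number the replicates without stating that each is a separate animal, so p-values measure the spread between these samples.

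ChREBP is a glucose-sensing transcription factor that binds DNA together with its partner Mlx at carbohydrate response elements, which are built from E-box sequences. The α isoform is held back at low glucose, whereas the shorter β isoform is made from a separate promoter, upstream of that of α, that is itself driven by ChREBP. In fat and liver the factor is known for raising genes of glycolysis, fructose handling and de novo lipogenesis after a carbohydrate meal. The question of the comparison is which genes differ once the α isoform is lost in addition to β.

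The array carries 3 probes for Mlxipl, and their sequences are shown because the probes differed in how far they fell in total ChREBP KO. Coordinates of the probes are those of the array design on mm9, chromosome 5, plus strand, and capitals mark the run of 15 bases that also occurs in other promoter windows of the RefSeq set.

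A_55_P2119957: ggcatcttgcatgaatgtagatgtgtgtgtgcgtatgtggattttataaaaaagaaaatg
A_55_P2728555: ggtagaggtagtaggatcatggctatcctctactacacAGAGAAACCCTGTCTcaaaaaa
A_55_P2045158: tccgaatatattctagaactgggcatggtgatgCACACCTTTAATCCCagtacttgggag

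The probe A_55_P2119957 was the brightest and lies at chr5:135613705-135613764. On it the 5 total ChREBP KO arrays, given throughout in the order of replicates 4, 2, 3, 7 and 1, read 14.08, 14.24, 14.29, 14.20 and 14.25 on the log2 intensity scale. The 6 ChREBPβ KO arrays ran from 14.02 through a median of 14.35 to 14.70, so the knockout groups overlapped. The difference of total ChREBP KO minus ChREBPβ KO was -0.13 (log2, SE 0.15, limma adjusted p = 0.595), and 0.01 when arrays were centred on their median. The wild types differed by 0.88 (SE 0.13, adjusted p = 0.000115), with total ChREBP WT the higher. Total ChREBP KO lay 1.75 below its littermates (adjusted p = 3.4e-08) and ChREBPβ KO 0.73 below its own (adjusted p = 0.147), and the difference of these effects was -1.02 (SE 0.20, adjusted p = 0.0039). The probe A_55_P2045158, at chr5:135614195-135614252, gave 0.06 between knockouts (SE 0.08, adjusted p = 0.66), and on it total ChREBP KO and its littermates differed by 0.08 (adjusted p = 0.692). The dimmest probe, A_55_P2728555, at chr5:135598483-135599113, gave 0.30 between knockouts (SE 0.13, adjusted p = 0.112) and -0.66 between total ChREBP KO and its littermates (adjusted p = 0.00112). The run CACACCTTTAATCCC of A_55_P2045158 was found in 28 of 32851 promoter windows and the run AGAGAAACCCTGTCT of A_55_P2728555 in 46, whereas no run of the brightest probe occurred in more than 1. Both runs are letters of the B1 family of repeats that is spread through the mouse genome, and the share of other transcripts in the signal of these probes was not tested. Signal of all 3 probes was well above background on all 5 total ChREBP KO arrays, and no Mlxipl probe reports whether a functional protein was made.

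**Figure D1:**
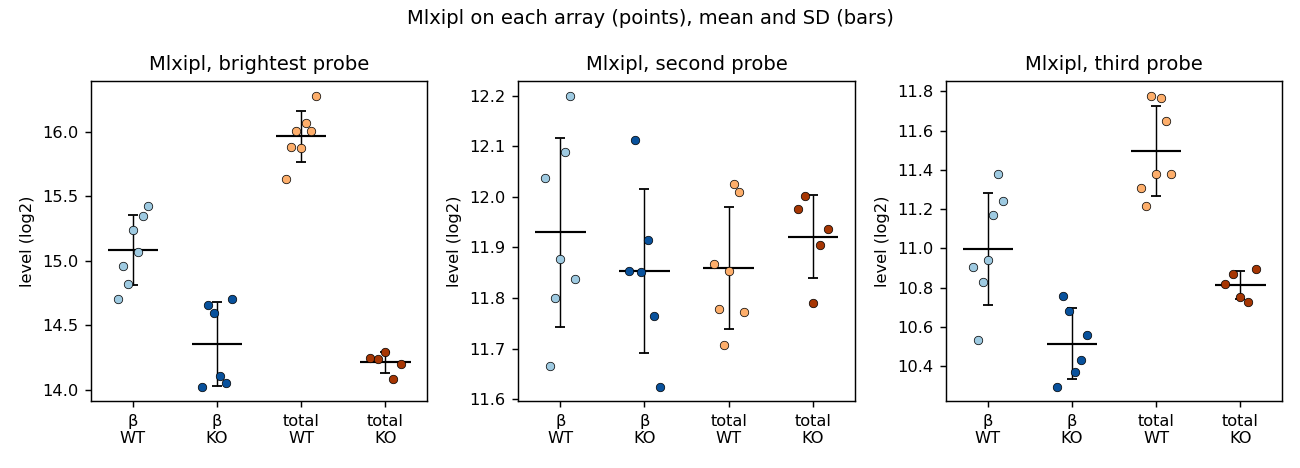
Level of Mlxipl (log2 intensity) on each array by group, 1 panel per probe in order of brightness, with points for arrays and bars for the group mean and SD. On the brightest probe the 5 total ChREBP KO arrays sit between 14.08 and 14.29, inside the range of the 6 ChREBPβ KO arrays.

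RefSeq annotates 2 starts of Mlxipl, 17001 bases apart on GRCm38.p6. The windows from 250 bases before to 50 after each start are shown because the E-box CACGTG (a palindrome, so both strands are read at once; in capitals) stands in only 1 of them. The motif stands in 2349 of the 32851 windows (7.15%), and 2 exact copies of it spaced by 5 bases, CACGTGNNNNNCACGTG, in 0. That search misses any element whose boxes depart from CACGTG, so it cannot show that a window lacks a carbohydrate response element.

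Mlxipl, upstream start, chr5:135089640-135089939, plus strand: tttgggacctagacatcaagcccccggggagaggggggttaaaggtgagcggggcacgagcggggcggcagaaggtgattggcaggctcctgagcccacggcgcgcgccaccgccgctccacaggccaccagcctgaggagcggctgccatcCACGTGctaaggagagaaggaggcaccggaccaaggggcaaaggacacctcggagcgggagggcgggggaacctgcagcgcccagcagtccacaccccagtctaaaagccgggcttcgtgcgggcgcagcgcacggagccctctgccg
Mlxipl, downstream start, chr5:135106641-135106940, plus strand: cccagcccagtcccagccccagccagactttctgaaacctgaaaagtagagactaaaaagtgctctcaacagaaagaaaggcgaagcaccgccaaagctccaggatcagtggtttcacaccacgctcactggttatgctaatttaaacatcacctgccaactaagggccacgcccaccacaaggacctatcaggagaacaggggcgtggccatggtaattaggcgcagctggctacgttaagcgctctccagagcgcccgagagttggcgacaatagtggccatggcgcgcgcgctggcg

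The 25 arrays were alike in quality, with a median raw signal of 84 to 127 against a local background of 15 to 22, 73.0% to 77.9% of probes well above background and 0 saturated spots. The number of arrays limits the precision. Adipocyte genes were bright on every knockout array: the mean level of the 14 listed adipocyte genes was 16.10 to 16.17 in total ChREBP KO and 15.96 to 16.19 in ChREBPβ KO. Transcripts typical of a second tissue were also found, and how they came to be in these samples was not tested. The mean level of 24 genes that define liver, such as albumin and the fibrinogens, was 6.63, 7.25, 6.61, 6.48 and 6.41 on the total ChREBP KO arrays and ran from 9.49 through a median of 11.84 to 14.24 on the ChREBPβ KO arrays, without overlap. The wild types showed a like separation that overlapped, with 6.58 to 11.73 in total ChREBP WT and 11 to 14.99 in ChREBPβ WT. Kidney genes were raised on some arrays too, with a mean level of 8.24 and 7.77 on ChREBPβ KO replicates 2 and 4 against 6.18 to 6.57 in total ChREBP KO. In these bulk samples, fewer cells of a type and less RNA per cell cannot be told apart.

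**Figure D2:**
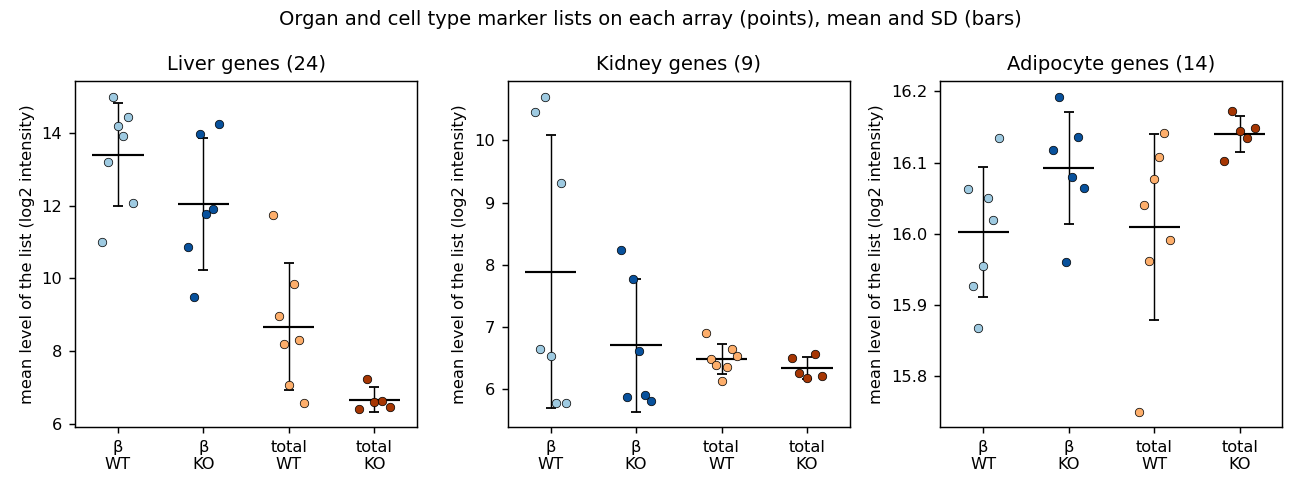
Mean level (log2 intensity) of 24 liver, 9 kidney and 14 adipocyte genes on each array, by group, with points for arrays and bars for the mean and SD; each panel has its own axis. Every total ChREBP KO array lies below every ChREBPβ KO array for the liver genes, while adipocyte genes span less than 1 log2 unit over all arrays.

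Across 26394 genes, each by its brightest probe, 4753 differed between the knockouts at an adjusted p under 0.05 (18.0%). Of these, 2914 were higher (11%) and 1839 lower (6.97%) in total ChREBP KO, and 4585 kept their sign within all 4 wash batches. Falls were larger than rises: 546 genes were at least 2-fold lower and 119 at least 2-fold higher. The median difference over all genes was 0.03. When arrays were centred on their median the rising share of the calls went from 61.3% to 72.3%. In the same fit 5757 genes differed between the wild types (21.8%), 3467 of them higher (13.1%) and 2290 lower (8.68%) in total ChREBP WT. Total ChREBP KO differed from its littermates for 2432 genes (9.21%), and ChREBPβ KO from its own for 0 by limma, with 2498 genes at an unadjusted p under 0.05.

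Of the 4753 genes, 2255 (47.4%) were called in the same direction between total ChREBP WT and ChREBPβ WT, 252 in the opposite direction, and 2246 were not called there. This count sets knockout arrays beside separate wild-type arrays. The knockout effect itself differed between the lines for 901 of all genes (3.41%), more positive in the total ChREBP line for 345 (1.31%) and more negative for 556 (2.11%). Of the 4753 genes 621 were among them, 277 rises and 344 falls. This last test uses the same knockout arrays as the comparison and is given beside it, not as separate evidence.

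**Figure D3:**
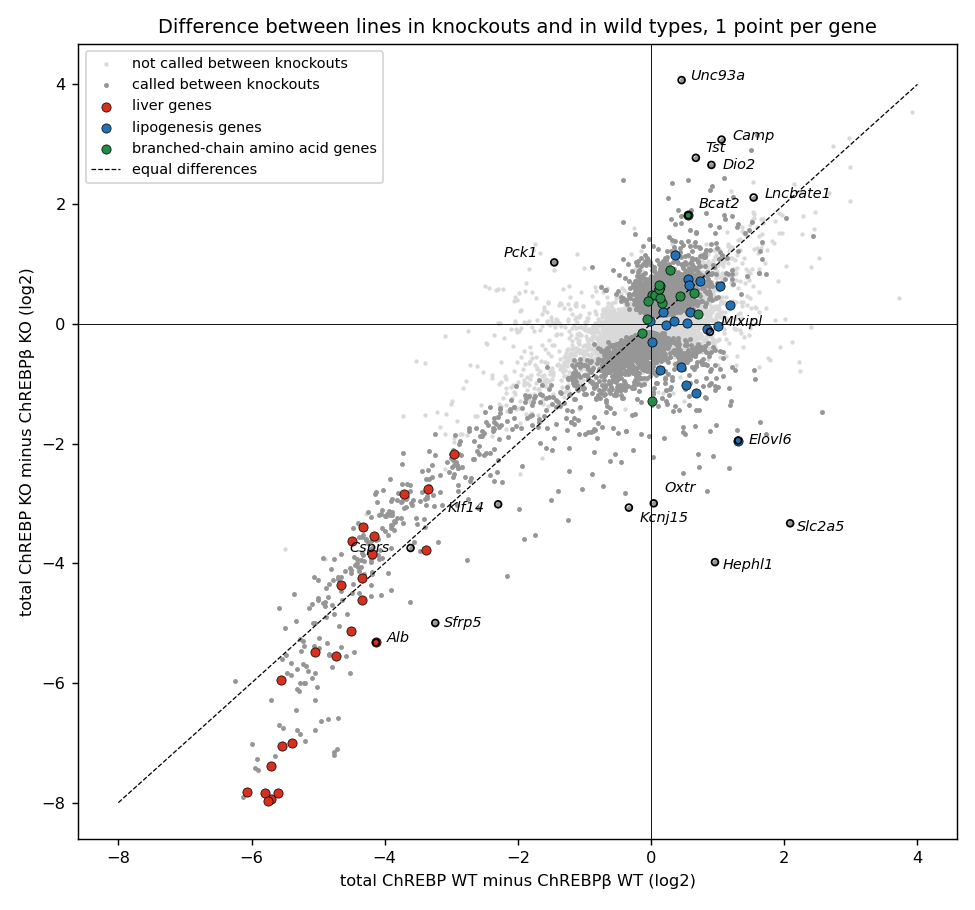
Difference between the lines for each of 26394 genes, with total ChREBP WT minus ChREBPβ WT (log2) on the horizontal axis and total ChREBP KO minus ChREBPβ KO (log2) on the vertical axis. The 24 liver genes run to the lower left near the dashed line of equal differences, Slc2a5 and Elovl6 lie at lower right where the wild types differ the other way, and Unc93a and Tst lie high with wild-type differences under 1.

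The 12 largest falls were genes that hepatocytes express: Gc, Fgb, Ces3a, Ambp, Fgg, Ttr, Pzp, Fabp1, F2, Bhmt, Mug1 and Mup17. Mup17 is of a family of near-identical genes whose levels are uncertain one by one, and 1 of the 3 probes of Bhmt gave 0.03. Gc, the vitamin D binding protein of plasma, read 5.43, 7.27, 5.42, 5.87 and 5.12 in total ChREBP KO and 11.07, 13.62 and 16.05 as lowest, median and highest in ChREBPβ KO. Its fall was 251-fold (log2 -7.97, SE 1.19, adjusted p = 0.000112), with -5.75 between the wild types. Alb, albumin, fell by 5.32 (SE 0.78, adjusted p = 0.000101), and its wild types differed by -4.13. Fga, a fibrinogen chain, was not well above background on any total ChREBP KO array and was at least 21.0-fold lower there (adjusted p = 0.00268). All 24 measured liver genes were lower, with a median difference of -5.23, and all 24 were lower between the wild types as well, with a median of -4.58. Over the 13 arrays of the ChREBPβ line, with each group centred on its mean, 337 of the 546 genes that fell at least 2-fold had a correlation above 0.8 with the liver level (61.7%), against 0 of the 119 that rose as much and 2.77% of all genes. These points share their libraries, and the correlation is a description only.

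With the liver level of each array entered as a term of the model, 2075 genes were called (7.86%), and 1493 of the 4753 kept their call and direction, 740 rises and 753 falls. The same term took the median of the liver genes from -5.23 to -0.56. It turned the sign of 278 of the 1839 falls and 16 of the 2914 rises. Because the liver level did not overlap between the knockout groups, the term also takes up part of any difference between them, and a call lost under it is not shown to be liver RNA. Of 179 named genes 169 were called, and 97 of these also with the term. Most of the naming rules required the call, and some required it with the term. Both counts therefore follow in part from the choice of genes.

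Some genes differed between the lines in wild types and knockouts alike. Of the 4753 genes, 539 were called in the same direction between wild types and knockouts both with and without the liver term, 291 higher and 248 lower in the total ChREBP line. With liver, kidney and epididymis levels all as terms, 535 genes were called between knockouts and 3 between wild types. The count of 539 therefore depends on which levels are in the model. Sfrp5, a secreted Wnt antagonist of adipocytes, read 10.63, 8.06, 9.86, 8.69 and 9.97 in total ChREBP KO and 12.68 to 15.26 (median 14.67) in ChREBPβ KO, without overlap. It was 32.0-fold lower (log2 -5.00, SE 0.62, adjusted p = 1.91e-05), with -3.24 between the wild types (adjusted p = 0.000297). Klf14, an imprinted transcription factor of fat on chromosome 6, was 8.09-fold lower (log2 -3.02, SE 0.38) and differed by -2.30 between the wild types. On total ChREBP KO replicate 7 Klf14 read 4.62, near the 4.57 of Fga, so the size of its fall is uncertain. Mest, another imprinted gene of chromosome 6 whose level in fat is known to vary with adipose expansion, differed by -3.52 and by -1.74 between wild types, and all 3 of these genes were chosen after their values were seen. In total ChREBP KO the fitted difference from littermates was -0.29 for Sfrp5, -0.22 for Klf14 and -0.91 for Mest, and all 3 falls held with the liver term. The rest of the gap between the knockout and wild-type differences is a higher fitted level in ChREBPβ KO than in its littermates. That comparison had 0 called genes.

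Csprs, Gm15433 and Gm7609, near-identical genes whose signals cannot be told apart, had like differences in both genotypes. For Csprs, total ChREBP KO read 7.17, 7.10, 7.44, 8.03 and 7.27, and ChREBPβ KO ran from 8.95 through 10.92 to 13.25. The differences were -3.74 between knockouts (SE 0.64, adjusted p = 0.000408) and -3.61 between wild types (SE 0.57, adjusted p = 0.000168), and the knockout effects differed by -0.13 (SE 0.86, adjusted p = 0.985). Gm15433, with -3.65 and -3.56, and Gm7609, with -2.48 and -2.31, were close behind. Gm7609 read 4.57 to 4.93 in total ChREBP KO, close to the 4.40 to 4.70 of Fga, so the size of its fall is uncertain. Slc5a7, the choline transporter of nerve endings, fell by 4.22 (wild types -2.16), and Vgll3, a cofactor of TEAD transcription factors, fell by 3.28 (wild types -1.25). Slc5a7 read 4.494 and 4.825 on total ChREBP KO replicates 2 and 7, also close to the levels of Fga, so the size of its fall is uncertain too. Hspb7, Npr3 and Prelp fell by 2.37, 2.08 and 2.07, with wild-type differences of -1.94, -1.58 and -1.23. Npr3 is the clearance receptor of natriuretic peptides. For Vgll3 the knockout effects differed too, by -2.02 (adjusted p = 0.0106). Apart from Npr3, the genes in these sentences were chosen after their values were seen.

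Rises of this kind were smaller. Lncbate1, a noncoding RNA of brown fat, was 4.32-fold higher in total ChREBP KO (log2 2.11, SE 0.31, adjusted p = 9.75e-05), and its wild types differed by 1.54. Its second probe gave 0.09. Krt36 rose by 1.70 (wild types 1.51), Ppp1r1a by 1.62 (1.29) and Mc5r, a melanocortin receptor, by 1.51 (1.41), all chosen after their values were seen, and the second probe of Mc5r gave 0.24. Abhd5, the activator of the triglyceride lipase ATGL, read 13.08, 13.29, 13.22, 12.99 and 13.15 against 11.46 to 12.40 (median 11.70), a rise of 1.35 (SE 0.19) with 0.98 between wild types. Adam12, a metalloprotease, rose by 1.85 (SE 0.13, adjusted p = 1.46e-08) with 0.83 between wild types, and for it the knockout effects differed by 1.02 (adjusted p = 0.000701). Masp1 and Lrtm1 rose by 2.23 and 2.43, with 0.89 and 1.09 between wild types, and 1 of the 5 probes of Masp1 fell instead.

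Lipogenesis genes split between falls and rises. Of 20 measured genes, 6 fell and 5 rose, where 6.97% of all genes fell and 11% rose. The median difference was 0.03, the same as over all genes. Between wild types 13 were called and all were higher in total ChREBP WT (median 0.54), while for 10 genes the knockout effect was more negative in the total ChREBP line and for 0 more positive. In ChREBPβ KO the median of the 20 effects against littermates was -0.12, and in total ChREBP KO -0.55.

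The falls included enzymes that make palmitate from citrate and elongate it. Elovl6, which elongates palmitate to stearate, read 12.02, 11.83, 11.99, 12.36 and 12.09 in total ChREBP KO and 13.46 to 14.44 (median 13.99) in ChREBPβ KO. It was 3.86-fold lower (log2 -1.95, SE 0.19, adjusted p = 1.82e-06) although total ChREBP WT lay 1.31 above ChREBPβ WT. The effect of the knockout on Elovl6 was -3.34 for total ChREBP and -0.08 for ChREBPβ, a difference of -3.26 (SE 0.26, adjusted p = 7.62e-08). Acaca, acetyl-CoA carboxylase, read 15.51, 15.84, 15.75, 15.95 and 15.63 against 16.61 to 17.12 (median 16.90), and fell by 1.15 (SE 0.10, adjusted p = 2.91e-07), with 6 of its 7 probes called. Acly, ATP citrate lyase, read 16.49, 16.55, 16.67, 16.74 and 16.63 against 17.36 to 17.95 (median 17.64), and fell by 1.02 (SE 0.12, adjusted p = 1.16e-05). All 3 were without overlap, and all 3 stayed called with the liver term, at -1.67, -1.08 and -0.77.

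Thrsp and Mid1ip1, partners that raise the activity of the lipogenic enzymes, fell by 0.77 and 0.72. Fasn, fatty acid synthase, fell by 0.31 (SE 0.05, adjusted p = 0.000165). Its values of 18.31, 18.42, 18.46, 18.46 and 18.44 lay just under the 18.54 to 18.79 of ChREBPβ KO and near the top of the scale, and the fall lost its call when arrays were scaled on their median or 75th percentile and with the liver term (-0.24). Scd1, the stearoyl-CoA desaturase of fat, differed by 0.19 (SE 0.10, adjusted p = 0.226). Fads1, Scd2, Tecr, Hsd17b12 and Acss2, which desaturate or elongate fatty acids or activate acetate, rose by 1.14, 0.76, 0.72, 0.65 and 0.63. The call on Acss2 (adjusted p = 0.0288) was lost when any of 5 of the 11 knockout arrays was left out. Of these genes, Scd2, Tecr, Hsd17b12 and Acss2 were also called higher in total ChREBP WT. Once the liver level was a term, 4 falls (Elovl6, Acaca, Acly and Thrsp) and 2 rises (Tecr and Hsd17b12) were called.

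**Figure D4:**
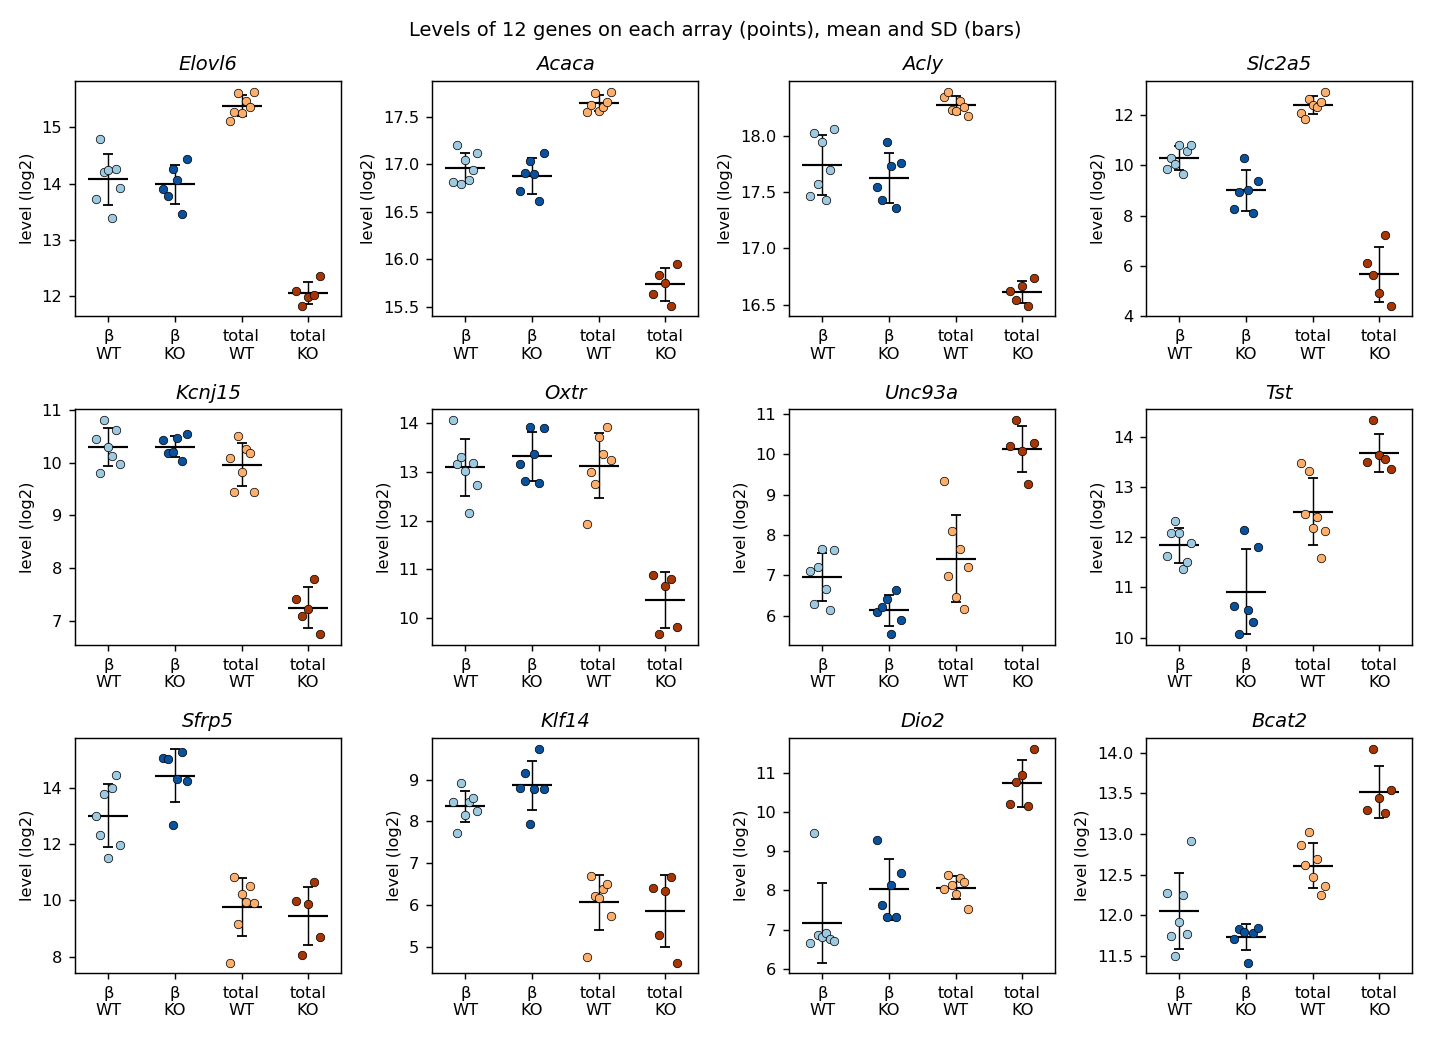
Level (log2 intensity) of 12 genes on each array in the 4 groups, with points for arrays and bars for the mean and SD; each panel has its own axis. Elovl6, Acaca, Acly, Slc2a5, Kcnj15 and Oxtr are lowest in total ChREBP KO, Sfrp5 and Klf14 are low in both groups of the total ChREBP line, and Unc93a, Tst, Dio2 and Bcat2 are highest in total ChREBP KO.

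Among sugar transporters the fall of the fructose transporter ran against a wild-type difference. Slc2a5, the fructose transporter GLUT5, read 7.23, 5.64, 4.93, 4.42 and 6.11 in total ChREBP KO and 8.11 to 10.30 (median 8.97) in ChREBPβ KO, without overlap. It was 10.1-fold lower (log2 -3.33, SE 0.39, adjusted p = 1.14e-05), while the wild types differed by 2.09 in the other direction (adjusted p = 0.00024). Its knockout effect was -6.74 for total ChREBP and -1.32 for ChREBPβ (adjusted p = 0.3 for the latter), and the effects differed by -5.42 (SE 0.52, adjusted p = 1.13e-06). On total ChREBP KO replicate 7 Slc2a5 read below Fga (4.57), which was not well above background there. The sizes of these falls are therefore uncertain. Of the 16 genes of hexose transport and fructose use, 6 fell and 2 rose, with a median of -0.44, where 6.97% of all genes fell and 11% rose. Slc2a2 and Tkfc were among the falls (-2.16 and -1.58), are expressed in hepatocytes, and had correlations of 0.92 and 0.93 with the liver level over the ChREBPβ line. Neither was called with the liver term, and both differences then changed sign. The second probe of Tkfc gave 0.18, and its call was lost when any of 4 knockout arrays was left out. Khk, ketohexokinase, differed by -1.18 (SE 0.49, adjusted p = 0.102).

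Slc2a4, the insulin-responsive glucose transporter, gave -0.39 (SE 0.13, adjusted p = 0.0468) on its brighter probe and 0.57 on the other. Both probes were called, in opposite directions, so the direction of the gene is uncertain. The call on the brighter probe was lost when any of 7 of the 11 knockout arrays was left out. On that probe the wild types differed by 0.93. Slc2a10 fell by 1.02 (SE 0.18). Slc2a13, a proton-coupled inositol transporter, rose by 1.70 (SE 0.24, adjusted p = 6.33e-05), from 9.80 to 10.51 in ChREBPβ KO to 11.54, 11.23, 11.88, 11.97 and 11.94 in total ChREBP KO, with -0.42 between wild types. Its difference with the liver term was 1.04 and was not called.

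Of 20 genes taken as ChREBP targets, 13 fell and 1 rose, with a median of -1.31, where 6.97% of all genes fell and 11% rose. This count moves with the liver level, since 9 of the 20 correlated with it above 0.8, and with the liver term 3 fell and 1 rose with a median of -0.30. The falls that held with the term were Elovl6, Acly and Tkt. Tkt, transketolase of the pentose phosphate pathway, read 15.91, 16.09, 15.88, 16.14 and 15.79 against 16.93 to 17.32 (median 17.16), and fell by 1.21 (SE 0.09, adjusted p = 7.5e-08) with 0.58 between wild types. This fall rests on the brightest of 3 probes, since neither of the others was called and the smallest difference among them was -0.09. Fgf21, a fasting hormone, fell by 1.64 (SE 0.39, adjusted p = 0.00522) while the wild types differed by 1.63, and Angptl8, an inhibitor of lipoprotein lipase activity, fell by 1.45 (SE 0.23, adjusted p = 0.000178). With the liver term these were -0.61 and -0.97 and were not called. Txnip and Pklr were not called, at -0.17 and -1.10, and Txnip gave 0.04 when arrays were centred on their median. Arrdc4, an arrestin-like relative of Txnip, was the rise, at 0.78 (SE 0.17, adjusted p = 0.00271), and the wild types differed by 0.68.

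The windows before Fgf21 and Arrdc4 are shown because both hold the E-box in capitals while the genes moved in opposite directions; the coordinates are GRCm38.p6 on the minus strand, with sequence from RefSeq. The window of Oxtr, whose fall is described after glycolysis, also holds it. Among tested genes with a window, 1501 of 14797 held the motif (10.1%), as did 12.4% of those that rose and 10.1% of those that fell. It stood in 29 of 177 windows (16.4%) of genes that fell with a more negative knockout effect in the total ChREBP line, and in 29 of 194 (14.9%) of those that rose with a more positive one.

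Fgf21, chr7:45615441-45615740: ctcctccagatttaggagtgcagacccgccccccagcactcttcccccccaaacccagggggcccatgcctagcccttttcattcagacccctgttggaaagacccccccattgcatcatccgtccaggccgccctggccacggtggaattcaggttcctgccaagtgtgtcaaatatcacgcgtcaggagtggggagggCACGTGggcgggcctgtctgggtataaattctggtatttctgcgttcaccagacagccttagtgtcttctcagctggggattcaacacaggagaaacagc
Arrdc4, chr7:68749189-68749488: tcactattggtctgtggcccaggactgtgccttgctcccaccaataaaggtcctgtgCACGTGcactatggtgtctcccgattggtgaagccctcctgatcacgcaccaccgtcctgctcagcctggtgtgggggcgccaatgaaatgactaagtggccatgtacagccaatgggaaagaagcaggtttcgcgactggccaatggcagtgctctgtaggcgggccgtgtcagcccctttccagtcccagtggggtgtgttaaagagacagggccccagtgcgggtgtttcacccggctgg
Oxtr, chr6:112489776-112490075: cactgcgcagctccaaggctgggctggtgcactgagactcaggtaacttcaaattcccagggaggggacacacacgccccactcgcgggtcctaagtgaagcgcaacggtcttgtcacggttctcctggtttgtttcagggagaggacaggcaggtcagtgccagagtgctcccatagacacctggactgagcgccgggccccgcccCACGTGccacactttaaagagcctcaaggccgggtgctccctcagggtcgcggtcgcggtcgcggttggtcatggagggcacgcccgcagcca

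Of 21 glycolysis genes 4 fell, 3 rose and 14 were not called, with a median of 0.00, where 6.97% of all genes fell and 11% rose. Eno1, enolase, fell by 0.71 (SE 0.08, adjusted p = 6.26e-06) with 0.68 between wild types, and its knockout effect was -1.39 for total ChREBP and 0.00 for ChREBPβ. Pkm, Ldha and Gapdh fell by 0.41, 0.24 and 0.20. Pfkfb1, which makes the activator of phosphofructokinase, rose by 0.84. For 5 of the 21 genes the knockout effect was more negative in the total ChREBP line and for 0 more positive. Of the 11 genes of the pentose phosphate pathway and NADPH supply, 2 fell and 3 rose.

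Large falls with a small or opposite wild-type difference also lay outside sugar and fat synthesis. Kcnj15, an inwardly rectifying potassium channel, read 7.79, 7.09, 7.23, 6.75 and 7.41 in total ChREBP KO and 10.03 to 10.53 (median 10.31) in ChREBPβ KO. It was 8.40-fold lower (log2 -3.07, SE 0.19, adjusted p = 2.63e-09), with -0.33 between wild types (adjusted p = 0.156). Oxtr, the oxytocin receptor, read 10.80, 9.67, 10.67, 9.82 and 10.88 against 12.77 to 13.91 (median 13.26), a 7.99-fold fall (log2 -3.00, SE 0.34, adjusted p = 7.8e-06) with 0.04 between wild types. The knockout groups did not overlap for either gene, as for 1237 of all genes that were lower (4.69%), and both falls held with the liver term, at -2.77 and -3.32.

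Hephl1, a relative of the copper oxidase hephaestin, read 5.08, 5.19, 5.55, 8.97 and 4.93 against 8.23 to 10.50 (median 10.17), so that 1 total ChREBP KO array, replicate 7, lay inside the range of ChREBPβ KO. The difference was -3.98 (SE 0.60, adjusted p = 0.000121). Prrt4 fell by 2.82, and Atp4b, a subunit of the gastric proton pump, by 2.49, although Atp4b was well above background on only 3 of 5 total ChREBP KO arrays. Hvcn1, a voltage-gated proton channel, and Kcnk3, a potassium leak channel of adipocytes, fell by 2.79 and 2.41 while their wild types differed by 0.83 and 1.17 in the other direction. These last 2 were outside the naming rule for the largest falls, Hvcn1 chosen after its values were seen and Kcnk3 as a thermogenic gene. For all 6 genes the knockout effects differed between the lines, by -4.94 for Hephl1, -2.43 for Prrt4, -2.97 for Atp4b, -3.62 for Hvcn1, -3.58 for Kcnk3 and -2.74 for Kcnj15.

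The largest rise was Unc93a, a membrane protein related to the trafficking factor UNC93B1. It read 9.26, 10.85, 10.09, 10.28 and 10.21 in total ChREBP KO and 5.53 to 6.63 (median 6.15) in ChREBPβ KO, a 16.8-fold rise (log2 4.07, SE 0.41, adjusted p = 1.93e-06). The wild types differed by 0.46 (adjusted p = 0.393), and the second probe of the gene gave 0.05. Tst, the mitochondrial sulfurtransferase rhodanese, read 13.57, 14.34, 13.65, 13.36 and 13.51 against 10.07 to 12.14 (median 10.59) and rose 6.84-fold (log2 2.77, SE 0.32, adjusted p = 1.13e-05). Camp, the cathelicidin antimicrobial peptide, rose by 3.08 (SE 0.55, adjusted p = 0.000531), and the knockout effects on it did not pass the test of a difference (2.02, SE 0.73, adjusted p = 0.177). Dio2, the deiodinase that activates thyroid hormone, read 10.16, 10.76, 10.94, 11.62 and 10.20 against 7.31 to 9.29 (median 7.89) and rose 6.30-fold (log2 2.65, SE 0.40, adjusted p = 0.000128). For Dio2 the difference of effects was 1.75 (SE 0.53, adjusted p = 0.0889).

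Lrrtm1, Lama1, Gm32280, Ttll2, Foxo6 and Gm9895 rose by 2.40, 2.40, 2.36, 2.10, 1.90 and 1.90. Lama1 encodes a laminin chain and Foxo6 a forkhead transcription factor. All 6 were without overlap between the knockouts, which was a condition for naming the 12 largest rises and so is no separate result. Among all genes 2047 were higher without overlap (7.76%). Lrrtm1, Gm32280, Ttll2, Foxo6 and Gm9895 also passed the test of a difference in knockout effects, at 2.83, 2.05, 1.84, 1.49 and 1.30, whereas Lama1 did not (1.85, adjusted p = 0.261). Gm32280 was not called with the liver term (1.85).

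Most genes that break down branched-chain amino acids rose. Of 17 measured, 13 rose, 2 fell and 2 were not called, with a median of 0.48 against 0.03 over all genes. Over all genes 11% rose and 6.97% fell. The mean level of the 17 genes was 13.16, 13.22, 13.16, 13.20 and 13.13 on the total ChREBP KO arrays and 12.71 to 12.83 on the ChREBPβ KO arrays, without overlap. Between wild types 5 were higher and 1 lower, with a median of 0.13, and for 8 of the 17 the knockout effect was more positive in the total ChREBP line. None of the 17 correlated above 0.8 with the liver level. With the liver term 6 rose (Bcat2, Bckdha, Dld, Mccc1, Mccc2 and Aldh6a1), 0 fell and the median was 0.39.

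Bcat2, the mitochondrial aminotransferase of the first step, read 13.26, 14.05, 13.44, 13.54 and 13.29 against 11.42 to 11.84 (median 11.78), a 3.51-fold rise (log2 1.81, SE 0.20, adjusted p = 4.78e-06) with 0.56 between wild types. Bckdha, a subunit of the dehydrogenase complex that commits the carbon skeletons, rose by 0.58 (SE 0.09, adjusted p = 0.000128), and its kinase Bckdk by 0.52. Mccc1 and Mccc2, the subunits of methylcrotonyl-CoA carboxylase, rose by 0.90 and 0.64, Acadsb by 0.65 and Aldh6a1 by 0.58. The falls were Bcat1, the cytosolic aminotransferase, by 1.28 (SE 0.30, adjusted p = 0.00445), and Ppm1k, the phosphatase of the complex, by 0.15. Bcat1 was not called on the mean of its 3 probes (-0.66) or with the liver term (-1.35).

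**Figure D5:**
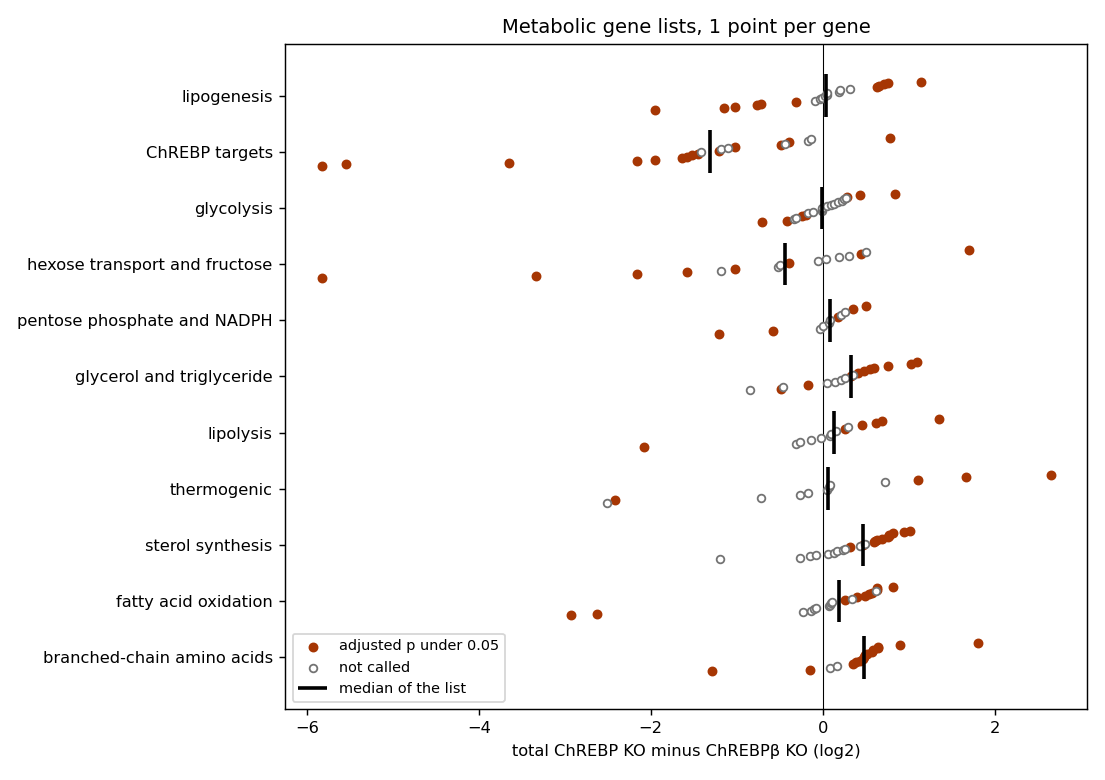
Difference of total ChREBP KO minus ChREBPβ KO (log2) for each gene of 11 metabolic lists, filled where the adjusted p was under 0.05, with a bar at the median of the list. Branched-chain amino acid and sterol genes sit mostly above 0, lipogenesis genes fall on both sides, and the far-left points of the ChREBP target and hexose lists include hepatocyte genes such as Slc2a2.

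Of 23 measured genes of sterol synthesis, 12 rose and 0 fell, against 11% and 6.97% of all genes. Their median was 0.47, and 7 were higher and 3 lower between wild types. Insig1, which restrains SREBP processing, rose by 1.02 (SE 0.17, adjusted p = 0.000396), from 11.19 to 11.98 in ChREBPβ KO to 12.33, 12.48, 12.81, 12.95 and 12.60. The enzymes Nsdhl, Mvd, Sqle, Idi1 and Msmo1 rose by 0.95, 0.82, 0.77, 0.77 and 0.75, and the second probe of Sqle gave 0.09. The knockout effect was more positive in the total ChREBP line for 2 of the 23, among them Msmo1 (0.93, adjusted p = 0.000228). With the liver term 11 rose and 0 fell, and the median was 0.83, while 4 of the 23 correlated above 0.8 with the liver level.

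In triglyceride synthesis and glycerol supply, 8 of 17 genes rose and 2 fell (median 0.33), against 11% and 6.97% of all genes. Gpat3, which starts glycerolipid assembly in fat, rose by 1.10 (SE 0.17, adjusted p = 0.000194), and Dgat1, which completes it, by 0.76, with 0.62 between wild types. Pck1, the enzyme of glyceroneogenesis, read 15.49, 15.68, 15.65, 15.32 and 15.56 against 13.83 to 15.59 (median 14.45), with overlap. It rose by 1.03 (SE 0.33, adjusted p = 0.0375) although the wild types differed by -1.45, and the effects differed by 2.48 (adjusted p = 0.00154). The call on Pck1 was lost when any of 8 of the 11 knockout arrays was left out, with the liver term (0.85) and without the 2 ChREBPβ KO arrays of highest liver level (0.70). With the liver term 2 of the 17 genes rose and 0 fell. Gpd1, which makes glycerol 3-phosphate, fell by 0.49 (SE 0.09, adjusted p = 0.00107) with 0.66 between wild types.

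Lipolysis genes gave 5 rises and 1 fall of 14, with a median of 0.13, against 11% and 6.97% of all genes. Pnpla2, the lipase ATGL, was not called (0.29, SE 0.12, adjusted p = 0.104). Adrb3, the β3-adrenergic receptor, rose by 0.62 (SE 0.17, adjusted p = 0.0127) with -0.76 between wild types, and its effects differed by 1.37 (adjusted p = 0.000477). It was not called with the liver term (0.11) or without the 2 ChREBPβ KO arrays of highest liver level (0.49). Pde3b, the phosphodiesterase through which insulin restrains lipolysis, rose by 0.69. With the liver term 2 of the 14 genes rose and 2 fell.

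Of 20 genes of fatty acid oxidation, 8 rose and 2 fell (median 0.19), against 11% and 6.97% of all genes. Cpt2, of the carnitine shuttle, rose by 0.82 (SE 0.08, adjusted p = 6.39e-07), with 0.32 between wild types. Cpt1a rose by 0.49 (SE 0.17, adjusted p = 0.0457) with -0.53 between wild types, and lost its call when any of 7 of the 11 knockout arrays was left out and with the liver term (0.68). Bdh1, of ketone metabolism, was among the falls at -2.93, with a correlation of 0.92 with the liver level and no call once it was a term, when 5 of the 20 genes rose and 0 fell. Of 12 thermogenic genes 3 rose, Dio2, Cox8b (1.67) and Ppargc1a (1.11), and Kcnk3 fell. Ppargc1a, a coactivator of mitochondrial genes, and Cox8b were higher between wild types too, by 1.13 and 1.31. Ucp1, the uncoupling protein, was not well above background on any total ChREBP KO array and read 4.76 to 6.94 in ChREBPβ KO, which was at least 1.6-fold above total ChREBP KO without passing the test (adjusted p = 0.0634).

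Among the 12 genes that encode ChREBP and its relatives, 2 rose and 1 fell, where 11% of all genes rose and 6.97% fell. Mlx, the dimer partner, rose by 0.59 (SE 0.15, adjusted p = 0.00821) with 1.03 between wild types, Mxd4 rose by 0.27, and Max fell by 0.16. Of 14 adipocyte genes 6 rose and 2 fell, against the same shares of all genes. With the liver term 0 of the 14 rose and 2 fell, with a median of 0.06. Cebpa, a transcription factor of adipocyte differentiation, rose by 0.57 (SE 0.09), and Lep, leptin, read 9.37, 9.23, 9.55, 9.65 and 9.43 against 9.69 to 11.53 (median 10.79) and fell by 1.26 (SE 0.28, adjusted p = 0.00334) with -0.83 between wild types. Adipoq, adiponectin, was not called (0.15, SE 0.13, adjusted p = 0.482).

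Markers of other cell types are counted against the 6.97% of all genes that fell and the 11% that rose. Of 12 macrophage genes 1 fell, of 11 lymphocyte genes 3 fell (among them Ms4a1 and Cd79b, of B cells, which fell by 1.16 and 0.98), of 8 endothelial and 10 mesothelial genes 1 each fell, and of 9 progenitor genes 0 were called. The mean lymphocyte level was 7.37 to 7.74 in total ChREBP KO and 7.68 to 8.09 in ChREBPβ KO, and none of the 11 was called with the liver term. The call on Ms4a1 was lost when any of 8 of the 11 knockout arrays was left out and that on Cd79b with any of 5, and the second probe of Ms4a1 gave -0.10. Kidney, epididymis, testis and pancreas lists of 9, 7, 8 and 6 measured genes had 0 calls, and of 6 skeletal muscle genes 1 rose. Between wild types 4 of the 9 kidney genes were lower in total ChREBP WT, with a median of -1.53, where 8.68% of all genes were lower. The kidney level was a term only together with the liver and epididymis levels, so its own part in the results was not tested.

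Of 14 glucocorticoid-responsive genes 4 rose and 2 fell (median 0.36), against 11% and 6.97% of all genes, and 1 rose and 0 fell with the liver term (median 0.00). Of 17 immediate early genes 1 rose, Fosb, by 1.76. Total ChREBP KO replicate 7 read 11.11 for Fosb against 7.96 to 8.77 on the other 4 arrays. The difference was 1.17 and not called without it, and the call was lost when any of 4 of the 11 knockout arrays was left out. Of 18 clock genes 2 rose, Per1 and Per2, by 1.13 and 0.55, with 0.20 and 0.15 on their second probes, and the call on Per2 was lost when any of 7 arrays was left out. None of 15 MHC genes was called, at medians of -0.09 between knockouts and -0.20 between wild types, and the first was 0.09 with arrays centred on their median. Of 5 genes that differ between C57BL/6 substrains, 1 was called, Ide, at 0.72 (SE 0.16, adjusted p = 0.0041), and Nnt, which carries a deletion in the J substrain, gave -0.12 (adjusted p = 0.455). Of 4 sex-chromosome genes 1 rose. Between wild types 3 of them were higher in total ChREBP WT, with a median of 0.27, where 13.1% of all genes were higher. Their mean level was 9.55 to 9.78 in total ChREBP KO and 9.42 to 9.48 in ChREBPβ KO. It was 9.52 to 9.69 in total ChREBP WT and 9.18 to 9.45 in ChREBPβ WT, so the lines did not overlap in either genotype.

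Between knockouts, probes near Mlxipl on chromosome 5 were called at shares on both sides of that of other chromosomes. Within 1 Mb of the brightest Mlxipl probe 13 of 85 tested probes were called between knockouts (15.3%), from 1 to 5 Mb 55 of 206 (26.7%), from 5 to 10 Mb 11.8%, from 10 to 20 Mb 19.5%, and on the rest of the chromosome 17.5%. On other chromosomes the share was 17.7%. Between wild types the same bins gave 20.0%, 17.5%, 20.9%, 25.8% and 21.8%, against 21.8% on other chromosomes. Between total ChREBP KO and its littermates they gave 15.3%, 21.4%, 6.95%, 9.35% and 8.31%, against 8.71% on other chromosomes, so the shares within 5 Mb were above that of other chromosomes. These shares are descriptions with no test.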

How the data were processed

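Total RNA of perigonadal fat was labelled with Cy3 and hybridised to single-colour Agilent arrays, which the authors scanned and read with Feature Extraction 10.10.1.1. The deposited scanner files give a spot intensity per probe. The deposited series table gives log2 intensity of 40561 gene probes, which the authors had filtered on detection, quantile normalised and reduced to the median over replicated probes. Here the median spot intensity of those probes was quantile normalised over the 25 arrays in the same way, and the table itself served as an alternative. Names came from the array design and from RefSeq. A gene stands by its brightest probe.

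All arrays were fitted together with limma 3.58.1 in R 4.3.3, with group and wash batch (4 batches as labelled, each holding all groups) as terms. P-values were adjusted by Benjamini-Hochberg over all 40561 probes, and a gene was called at an adjusted p under 0.05. Missing values, on 23 probes, were left out. On simulated data for total ChREBP KO minus ChREBPβ KO, with 200 of 40538 probes changed by 1 log2 unit, 90% were recovered, and 7.22% of the calls were unchanged probes. The simulated noise was independent between probes, without the shared variation of the liver level in the arrays. These rates therefore need not hold for the data.

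Named genes were, among called genes, the 12 largest in each direction with groups apart and 1 sign in all wash batches, the 5 largest in each direction with a wild-type difference called the same way and the 5 with one under 0.25 of the knockout difference in size. List members called at 0.5 log2 units or more and defining members were added. Lower members of a list and genes so marked were chosen after their values were seen. The groups and gene lists were chosen with earlier results of these data known. Alternatives covered scaling, background, filters, blocks, organ levels as terms and left-out arrays. A gene not well above background on any array of a group is given as a bound, the bright group's mean against the lowest signal well above background. Results for a few list members are not reported here.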

Additional observations from a re-analysis of the deposited data

Results flagged for a closer look

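In 9 of 108 checks of a group's levels, 1 array stood apart from the rest of its group, and chance flags about 1 in 20. Total ChREBP KO replicate 7 read 12.06 for the mean of the immediate early genes against 9.86 to 10.17 on the other 4 arrays, and 15.6 for Txnip against 15.4 to 15.45. Total ChREBP KO replicate 4 read 8.99 for the testis genes against 5.49 to 6.37, and 18.31 for Fasn against 18.42 to 18.46. Total ChREBP KO replicate 2 read 7.25 for the liver genes against 6.41 to 6.63, and 12.29 for the endothelial genes against 11.82 to 11.91. ChREBPβ KO replicate 4 read 13.01 for the glucocorticoid-responsive genes against 12.72 to 12.79, 10.15 for the clock genes against 9.8 to 9.91, and 6.94 for Ucp1 against 4.76 to 5.53.

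For 46 of the named genes the effect of the knockout differed between the lines by the interaction term of the limma fit. Some were named because they passed this test, so the count follows in part from the choice. Over all 26394 genes 901 passed it (3.41%). The difference, total ChREBP line minus ChREBPβ line, was negative for Slc2a5 (-5.42), Hephl1 (-4.94), Hvcn1 (-3.62), Kcnk3 (-3.58), Fgf21 (-3.27), Elovl6 (-3.26), Oxtr (-3.04), Atp4b (-2.97), Kcnj15 (-2.74), Prrt4 (-2.43), Vgll3 (-2.02), Angptl8 (-1.87), Acaca (-1.83), Tkt (-1.79), Acly (-1.55), Eno1 (-1.39), Slc2a4 (-1.33), Mid1ip1 (-1.18), Gpd1 (-1.14), Mlxipl (-1.02), Thrsp (-0.89) and Fasn (-0.33). It was positive for Unc93a (3.61), Lrrtm1 (2.83), Pck1 (2.48), Slc2a13 (2.12), Tst (2.10), Gm32280 (2.05), Ttll2 (1.84), Foxo6 (1.49), Adrb3 (1.37), Gm9895 (1.30), Bcat2 (1.25), Per2 (1.05), Adam12 (1.02), Cpt1a (1.02), Msmo1 (0.93), Gpat3 (0.89), Pde3b (0.62), Mccc1 (0.61), Acadsb (0.54), Mccc2 (0.51), Cpt2 (0.50), Cebpa (0.45), Aldh6a1 (0.45) and Bckdha (0.45). The adjusted p of the 46 ran from 1.36e-08 for Tkt to 0.0382 for Acadsb. Unc93a combined an effect of 2.73 for total ChREBP with one of -0.89 for ChREBPβ, and Tst effects of 1.11 and -0.99.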

How the results depend on the processing

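Differences are total ChREBP KO minus ChREBPβ KO on the log2 scale, and the cause of a change between settings was not tested unless stated. The counts of genes that differed between knockouts, between wild types and in knockout effect stayed within 1.5 times the reported counts in all other alternatives. Between knockouts 2075 genes were called with the liver level as a term and 535 with liver, kidney and epididymis levels (2061 and 3 between wild types). The effects differed for 1451 genes with array weights. Leaving out 1 array gave 3551 to 4847, 4558 to 6020 and 708 to 1081 genes for these counts. Whether equal replicate numbers pair the samples is not known, and they were not treated as pairs. The 3 same-numbered knockout pairs deviated with correlations of 0.55, -0.12 and 0.19. These pairs are few and each shares a wash batch, so they cannot decide it. With the replicate block 3311 genes were called between knockouts, 5124 between wild types and 503 in effect. Mlxipl turned to 0.0073 with median centring, 0.1263 with organ levels, 0.0766 as the mean over probes and 0.0166 without the 2 ChREBPβ KO arrays of highest liver level, a choice made after seeing the data, and was called in none of these. With the liver level as a term the list medians were -0.2983 for ChREBP targets, -0.015 for hexose genes, 0.0602 for lipolysis, 0.8292 for sterol synthesis, 0.3922 for fatty acid oxidation, 0.3908 for branched-chain amino acids, -0.0042 for glucocorticoid-responsive genes, -0.2098 for MHC genes, -0.2434 for substrain genes and -0.5642 for liver genes. With the 3 organ levels they were 0.0451 for ChREBP targets, -0.0618 for hexose genes, 1.0422 for sterol synthesis, 0.4285 for fatty acid oxidation, 0.0201 for ChREBP relatives, 0.0428 for glucocorticoid-responsive genes, -0.0577 for clock genes, -0.2166 for substrain genes and -0.4103 for liver genes. Median centring gave 0.1646 for glycolysis, 0.1944 for the pentose pathway, 0.4206 for triglyceride synthesis, 0.2381 for lipolysis, 0.5704 for branched-chain amino acids, 0.0133 for ChREBP relatives and 0.0876 for MHC genes. The 75th percentile gave 0.1132 for glycolysis, 0.2027 for lipolysis, 0.5489 for branched-chain amino acids, 0.0085 for ChREBP relatives and 0.024 for MHC genes. The mean over probes gave -0.0614 for hexose genes, 0.1784 for the pentose pathway, 0.0541 for ChREBP relatives, 0.2481 for clock genes and -0.0196 for substrain genes. Without the 2 arrays of highest liver level the medians were 0.0671 for glycolysis, 0.1817 for the pentose pathway, 0.3913 for triglyceride synthesis and -0.0232 for ChREBP relatives. The deposited table gave 0.0841 for glycolysis, and array weights 0.0018 for ChREBP relatives. Leaving out 1 array gave medians of -0.0192 to 0.0675 for glycolysis, 0.0589 to 0.1861 for the pentose pathway, 0.2482 to 0.3628 for triglyceride synthesis, 0.0685 to 0.1978 for lipolysis, 0.4571 to 0.5251 for branched-chain amino acids, -0.0675 to 0.0463 for ChREBP relatives, -0.1451 to -0.0516 for substrain genes and -0.1517 to -0.0073 for pancreas genes. Genes that changed sign with the liver level and with the 3 organ levels as terms were Fga (1.1072 and 1.1381), Slc2a2 (0.0906 and 0.943), Tkfc (0.5697 and 1.3974), Khk (0.9804 and 1.6913), Pklr (1.0653 and 1.9582), Adipoq (-0.2259 and -0.1076) and Nnt (0.1709 and 0.09, and 0.0171 without the 2 arrays). Scd1 changed sign with the liver level only (-0.027), Slc2a4 as the mean over probes (0.0897) and Txnip with the 75th percentile (0.0152) and median centring (0.0438). Signal over background limits Fga and Ucp1 to bounds.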
